A study of Mus musculus with 5 samples.

Results

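Expression of 50 mouse genes for DNA replication and nucleotide supply was followed in 4 medulloblastomas and 1 normal cerebellum. The genes form a list of symbols chosen by function, with earlier results of these data known. Of the list, 49 had at least 1 probe set carrying that single symbol, 110 probe sets in all, out of 18193 named genes on the array. Each gene was represented by its brightest probe set over the 5 arrays. All 49 had a mean signal of at least 100 and so were among the 14109 genes tested. The 50th gene is Chaf1a.

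Medulloblastoma is a tumour of the cerebellum. The 4 tumours, numbered 1 to 4 in record order, came from mice, and the series title names Cxcr6 mutant mice and treatment with a Smoothened inhibitor, but the labels of single arrays give no genotype, strain, treatment or age. The normal sample is labelled P5 cerebellum, read as postnatal day 5, with no genotype given. There is 1 cerebellum array, so every comparison rests on it, and tumour state, age and the particular cerebellum sample cannot be told apart. Titles of medulloblastomas 1 and 2 begin with ken, and those of medulloblastomas 3 and 4 and of the cerebellum begin with hmk. Nothing in the labels says what these prefixes stand for. RNA was extracted with Trizol for all but medulloblastoma 4, whose label names only the manufacturer's standard procedure.

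Replication begins when the origin recognition complex, with Cdc6 and Cdt1, loads the ring-shaped MCM helicase onto DNA in G1 phase. In S phase a kinase and the Cdc45 and GINS proteins switch that helicase on, polymerases copy the strands behind a sliding clamp, and ribonucleotide reductase with the thymidylate enzymes supplies the building blocks. Many of these genes are switched on together at the start of S phase by E2F transcription factors. In the early postnatal cerebellum the granule neuron precursors of the external granule layer divide under Sonic hedgehog, so the normal sample is itself a proliferating tissue.

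The regulatory sequence around the gene starts was examined first, because joint control by E2F factors is the textbook feature of this gene set. RefSeq promoters of build GRCm38.p6, each running from 250 bases before to 50 after a gene start, were found by symbol for 42 of the 49 genes, and those without an entry were Gmnn, Mcm4, Gins1, Gins2, Prim2, Pole and Rfc2. An E2F word, meaning TTTCCCGC, TTTCGCGC, TTTGCCGC or TTTGGCGC on either strand, was present in 15 of 42 (35.7%). The same words were present for 704 of the 27025 genes in the table (2.6%) and for 490 of 11333 tested genes (4.32%). Among the helicase genes 4 of 5 held one, among the nucleotide supply genes 0 of 5, and among the mitosis genes used for comparison 1 of 24. Of the 21 E2F words in these promoters, 14 began within 50 bases of the start.

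The promoters shown are those with an E2F word among the 12 members with the smallest p-values in the comparison of tumours with cerebellum. They are written 5′ to 3′ on the strand of the gene, with the E2F words in capitals.
Mcm7, chr5:138171834-138172133, minus strand: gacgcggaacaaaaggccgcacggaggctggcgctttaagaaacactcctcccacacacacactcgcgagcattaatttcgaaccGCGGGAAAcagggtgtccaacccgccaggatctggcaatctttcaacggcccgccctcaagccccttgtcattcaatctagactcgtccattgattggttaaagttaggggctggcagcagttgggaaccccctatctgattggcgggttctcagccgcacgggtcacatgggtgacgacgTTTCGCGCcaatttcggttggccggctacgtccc
Orc1, chr4:108579204-108579503, plus strand: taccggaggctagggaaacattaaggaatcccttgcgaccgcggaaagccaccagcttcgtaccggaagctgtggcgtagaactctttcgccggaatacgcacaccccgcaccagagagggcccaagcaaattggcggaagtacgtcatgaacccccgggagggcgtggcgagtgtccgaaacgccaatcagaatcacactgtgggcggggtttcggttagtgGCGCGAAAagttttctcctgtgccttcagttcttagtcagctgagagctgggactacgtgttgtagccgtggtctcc
Cdt1, chr8:122567765-122568064, plus strand: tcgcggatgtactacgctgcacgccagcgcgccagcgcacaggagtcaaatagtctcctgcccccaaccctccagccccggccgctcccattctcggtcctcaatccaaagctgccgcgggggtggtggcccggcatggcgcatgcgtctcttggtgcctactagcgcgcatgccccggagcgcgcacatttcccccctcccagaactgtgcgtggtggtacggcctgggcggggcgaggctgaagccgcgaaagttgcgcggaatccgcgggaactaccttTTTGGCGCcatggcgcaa
Mcm3, chr1:20820263-20820562, minus strand: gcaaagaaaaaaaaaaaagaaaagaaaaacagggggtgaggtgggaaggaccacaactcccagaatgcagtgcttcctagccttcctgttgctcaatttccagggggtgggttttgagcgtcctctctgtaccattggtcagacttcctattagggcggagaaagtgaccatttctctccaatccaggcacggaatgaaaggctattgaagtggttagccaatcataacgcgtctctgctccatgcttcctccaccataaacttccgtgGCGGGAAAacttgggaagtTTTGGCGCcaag
Pola1, chrX:93632106-93632405, minus strand: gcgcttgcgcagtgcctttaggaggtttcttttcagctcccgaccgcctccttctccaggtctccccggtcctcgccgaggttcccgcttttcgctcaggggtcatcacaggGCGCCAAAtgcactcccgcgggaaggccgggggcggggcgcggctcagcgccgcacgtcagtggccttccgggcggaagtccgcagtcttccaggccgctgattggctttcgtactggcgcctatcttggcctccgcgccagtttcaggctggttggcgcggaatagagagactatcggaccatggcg
Lig1, chr7:13278576-13278875, plus strand: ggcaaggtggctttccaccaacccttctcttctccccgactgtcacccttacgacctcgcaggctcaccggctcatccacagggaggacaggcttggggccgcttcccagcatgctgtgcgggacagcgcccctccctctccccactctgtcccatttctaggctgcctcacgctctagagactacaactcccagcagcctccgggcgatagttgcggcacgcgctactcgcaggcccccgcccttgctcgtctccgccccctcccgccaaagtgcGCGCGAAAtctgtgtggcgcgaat
In Mcm7 and in Mcm3 2 words are present, and in the other 4 promoters 1. The second Mcm7 word overlaps a CCAAT word. In Cdt1, Mcm3 and Lig1 all the words begin after the gene start, while in Orc1 the word begins 27 bases before it. Mcm7 has another start in the table, and Lig1 has 2 others, none with an E2F word.

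Other words differed in share between the replication and the mitosis genes. The CHR word TTTGAA, known from promoters of genes that peak late in the cell cycle, was present in 9 of 42 replication promoters (21.4%), 17 of 24 mitosis promoters (70.8%) and 20.2% of all genes in the table, or 14.6% of tested genes. CCAAT was found in 24 of 42 (57.1%), 17 of 24 (70.8%) and 41.1%, or 42.3% of tested genes. A word match is a description of the letters and was not tested for binding. Replication genes with an E2F word had a median log2 difference of 0.65 between tumours and cerebellum (15 genes, 13 of them above the cerebellum in all 4 tumours), and those without had 0.55 (27 genes, 19 of them above).

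Most replication genes read higher in the tumours than in the cerebellum, and none passed the test singly. The median log2 difference, tumours minus cerebellum, was 0.61 over the 49 genes and -0.07 over all 14109. The signal lay above the cerebellum in all 4 tumours for 37 of 49 genes (75.5%), against 25.1% of all genes tested. Below the cerebellum in all 4 lay 1 gene, Tyms at its brightest probe set, against 30.8% of all genes. At least 1.5-fold above in every tumour were 13 genes (26.5%, background 6.3%), and at least 1.5-fold below in every tumour were 0 (background 8.63%). At least 2-fold above were Orc1 and Mcm4 (4.08%, background 2.83%). In bulk tissue, fewer cells of a type and less RNA per cell cannot be told apart.

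No member was called by limma at an adjusted p under 0.05, 0 of 49 higher (background 0.312%) and 0 lower (background 0.177%). The smallest adjusted p was 0.109, shared by Mcm4, Mcm7 and Orc1. At an unadjusted p under 0.05, 19 members were higher (38.8%, background 7.72%) and 0 lower (background 7.44%). The spread in this test comes from the tumours alone, and with 4 arrays against 1 the smallest p of an exact permutation test is 0.2. Without medulloblastoma 1, limma called 14 members higher and 0 lower, against 3.18% and 2.71% of all genes, and they were Orc1, Cdt1, Mcm2, Mcm3, Mcm4, Mcm6, Mcm7, Pola1, Pole, Pcna, Rfc4, Rfc5, Dut and E2f1. Leaving out any other tumour gave 0.

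**Figure D1:**
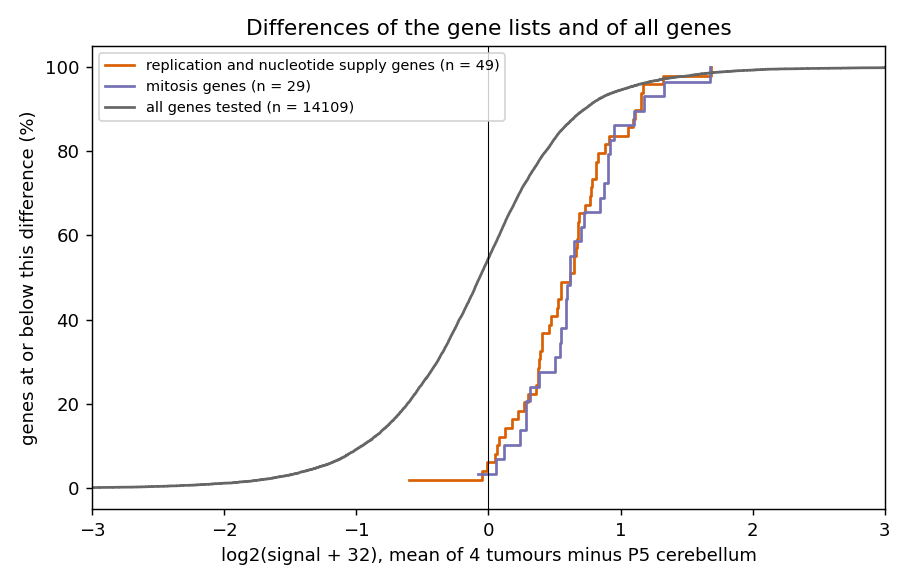
Share of genes (%) at or below each log2 difference between the mean of the 4 tumours and the P5 cerebellum, as step curves for the 49 replication and nucleotide supply genes, 29 mitosis genes and all 14109 genes tested. The 2 cell cycle curves lie to the right of that of all genes over most of their course, with medians of 0.61 and 0.62 against -0.07.

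The MCM helicase had the largest median difference of the role groups. All 6 lay above the cerebellum in all 4 tumours, with a median log2 difference of 1.10. Mcm4 read 2426, 2747, 3719.9 and 3594 in medulloblastomas 1 to 4, against 1209 in normal cerebellum, which is 1.32 ± 0.29 on the log2 scale (SE, limma, adjusted p = 0.109). Its lowest tumour was 2.01-fold above the cerebellum and its highest 3.08-fold. Mcm7 had the brightest signals of the helicase, at 21984, 15779, 15682 and 16037 in the tumours and 8052 in normal cerebellum (1.09 ± 0.24, adjusted p = 0.109). Medulloblastoma 1 stood above the other tumours here, unlike in the rest of the helicase. Mcm3 read 2195, 3959, 3328 and 3241 in tumours, against 1424 in cerebellum (1.11 ± 0.32, adjusted p = 0.188). Mcm6 read 3668, 5418, 6185 and 6311 in tumours, against 2843 in cerebellum (0.89 ± 0.31, adjusted p = 0.260). In these genes medulloblastoma 1 was the lowest tumour, and still above the cerebellum.

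Mcm2, Mcm3 and Mcm5 depended on which probe set was read. The brighter probe set of Mcm2 gave 3452, 5334, 5954 and 5461 in the tumours, against 2201 in normal cerebellum (1.16 ± 0.31, adjusted p = 0.157). The other, whose name ends in s_at and which can match several transcripts, gave 2912, 2921, 3856 and 2432 in tumours, against 3203 in cerebellum (-0.10), so that 1 tumour of 4 lay above. Among the brightest probe sets of the helicase, that of Mcm5, with a name ending in x_at, gave the smallest difference (0.39 ± 0.21). Mcm5 read there 3354, 3756, 3617 and 3434 in the tumours and 2691 in normal cerebellum. Its second probe set gave 2341, 3214, 2821 and 3195 in tumours, against 1678 in cerebellum (0.76). The brightest probe set of Mcm3 also ends in s_at, and its other probe sets differed by 0.06, 0.58, 1.05 and 1.09. At the one giving 0.06 medulloblastoma 4 lay below the cerebellum (245, against 320 in cerebellum). All 4 probe sets of Mcm7 differed by 0.98 to 1.27. Without probe sets ending in x_at or s_at, Mcm7 was the 1 member called (1.27, limma adjusted p = 0.0490; background 0.371%).

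**Figure D2:**
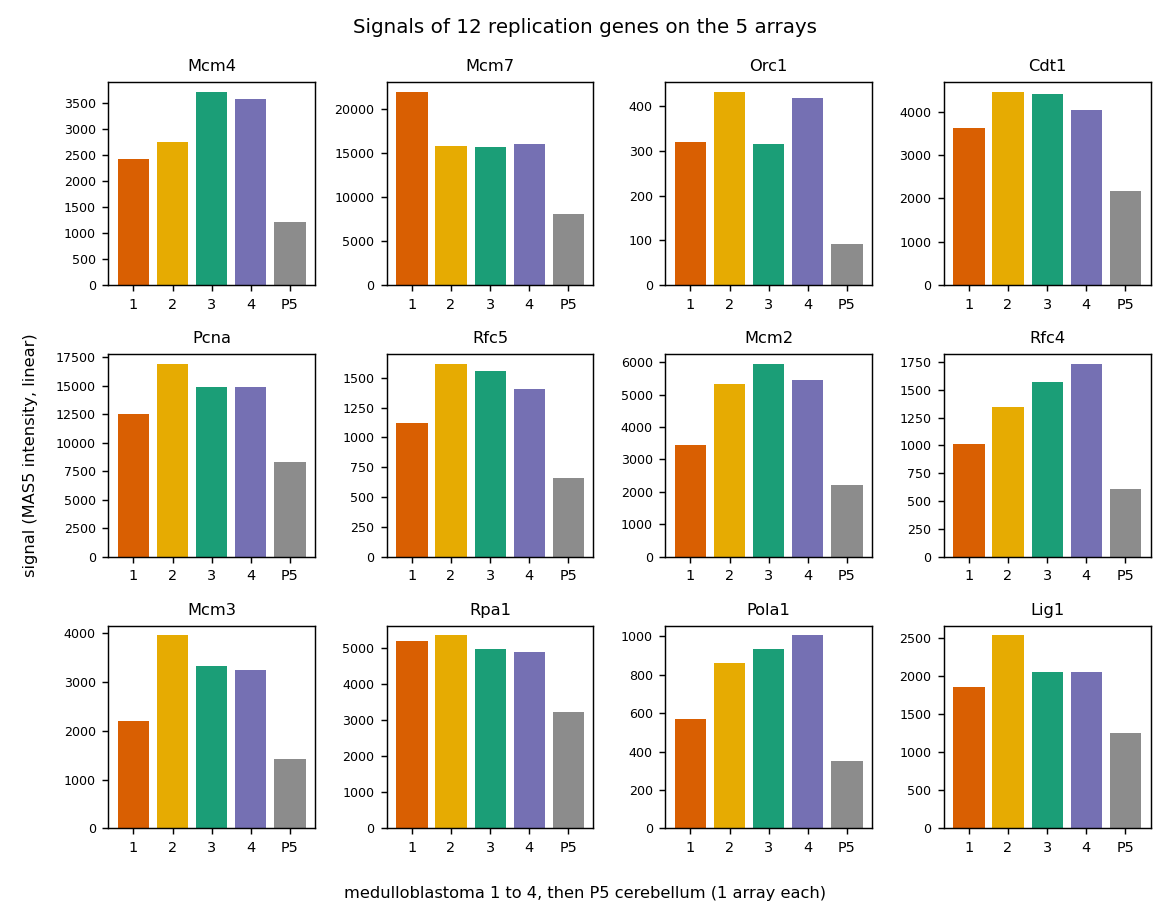
Signal (MAS5 intensity, linear scale) of the 12 members with the smallest p-values on each array, with medulloblastomas 1 to 4 left of the P5 cerebellum and 1 bar per array. In every panel all 4 tumour bars stand above the cerebellum bar, from 1.48-fold for the lowest tumour in Lig1 upwards.

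Among the genes that mark and license origins, 7 of 9 lay above the cerebellum in all 4 tumours (median 0.55). Orc1, the largest subunit of the origin recognition complex, differed most among the members at the brightest probe sets, but not with the larger constant before log2 or with probe sets averaged, where Mcm4 differed more (1.26 and 1.15, against 1.17 and 0.98 for Orc1). It read 320.2, 431, 316 and 418 in the tumours and 92.6 in normal cerebellum, a difference of 1.68 ± 0.37 (adjusted p = 0.109), and its cerebellum signal lay under the minimum mean of 100. This size belongs to 1 probe set, because the other one gave 194, 216, 225 and 193 in tumours, against 164 in cerebellum (0.28). Both probe sets had all 4 tumours above the cerebellum.

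Cdt1, which brings the MCM ring to origins, had a small spread among the tumours (SD 0.14 on the log2 scale). It read 3618, 4454, 4414 and 4046 in the tumours and 2177 in normal cerebellum (0.91 ± 0.22, adjusted p = 0.128), and its second bright probe set gave 0.81. Geminin, the protein that blocks Cdt1 after S phase begins, is encoded by Gmnn, which read 796, 1386, 1280.3 and 1142 in tumours, against 628 in cerebellum (0.81 ± 0.33, adjusted p = 0.311). The loading factor and its inhibitor thus lay above the cerebellum in every tumour. Cdc6, the ATPase that acts with Cdt1, differed by 0.55 ± 0.34, and Orc6 by 0.67 ± 0.27. Orc2, at 0.52 ± 0.31, was also above in all 4. Orc3 read 987, 1083, 1119 and 948 in tumours, against 832 in cerebellum (0.30 ± 0.25), with all 4 above. Its dimmer probe sets differed by 0.26 and -0.17, the last with 227, 222, 111 and 94.4 in tumours, against 177 in cerebellum.

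At their brightest probe sets Orc4 and Orc5 overlapped the cerebellum. Orc4 read 814, 813, 874 and 1143 in the tumours and 823 in normal cerebellum (0.13 ± 0.29), so that 2 tumours lay above. Its other 2 bright probe sets differed by 0.16 and 0.41, with all 4 tumours above. Orc5 had the largest spread among the tumours of any member (SD 0.61 on the log2 scale), with 428, 553, 934 and 1099.9 in tumours, against 679 in cerebellum (0.05 ± 0.49). Its ken tumours lay below the cerebellum and its hmk tumours above.

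Genes that fire the loaded origins were above the cerebellum in all 4 tumours for 6 of 7 at their brightest probe sets (median 0.47). The helicase cofactor gene Cdc45 read 699.9, 923, 708 and 657 in the tumours, against 419 in normal cerebellum (0.78 ± 0.29, adjusted p = 0.283). At a second probe set, which differed by 0.63, medulloblastoma 1 lay just below the cerebellum (193, against 198 in cerebellum). The GINS subunits differed unequally, Gins1 by 0.77 ± 0.33, Gins2 by 0.37 ± 0.32 and Gins3 by 0.23 ± 0.38. For Gins3 medulloblastoma 4 lay below the cerebellum (272 in that tumour, against 324 in cerebellum). At a second Gins3 probe set, of like brightness, medulloblastoma 1 lay below instead (202, against 317 in cerebellum) and medulloblastoma 4 above (418). Cdc7, the kinase that activates origins, and Dbf4, its regulatory subunit, differed by 0.47 ± 0.26 and 0.55 ± 0.29. A second probe set of Cdc7 differed by 0.20, with medulloblastoma 1 below the cerebellum (335, against 463 in cerebellum). Mcm10, which acts in starting the fork, read 990.5, 1387, 996 and 1091 in tumours, against 825 in cerebellum (0.41 ± 0.28), at its brightest probe set, and differed by -0.72 at a dimmer one that read 84.8, 129, 155 and 59.6 in tumours, against 189 in cerebellum.

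Of the 8 polymerase and primase genes 6 lay above the cerebellum in all 4 tumours (median 0.50). Pola1, the catalytic subunit of the polymerase that starts each new strand, read 568, 860.2, 932 and 1004 in the tumours and 349 in normal cerebellum (1.17 ± 0.35, adjusted p = 0.206). Its partner Pola2 read 732, 1094, 916 and 971 in tumours, against 926 in cerebellum, with 2 tumours above (-0.01 ± 0.29, adjusted p = 0.991). Of the primase pair, Prim1 read 2585, 3753, 2450.3 and 2539 in tumours, against 1576 in cerebellum (0.81 ± 0.28, adjusted p = 0.257). Prim2 read 806, 1178, 947 and 528 in tumours, against 684 in cerebellum (0.27 ± 0.41). At this probe set of Prim2 medulloblastoma 4 lay below the cerebellum. At another one, nearly as bright, medulloblastoma 1 lay below (534, against 645 in cerebellum) and medulloblastoma 4 above (697). These are differences of each gene from the cerebellum, and the difference between partners was not tested.

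In polymerase epsilon, which copies the leading strand, Pole read 840.0, 1668, 1403 and 1536 in tumours, against 754 in cerebellum (0.78 ± 0.38), and its accessory subunit gene Pole2 differed by 0.36 ± 0.28. In polymerase delta, of the lagging strand, Pold1 differed by 0.38 ± 0.24 and Pold2 by 0.61 ± 0.24. All 4 of these genes lay above the cerebellum in all 4 tumours, and none passed the test.

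Of the genes for the clamp and its partners, 8 of 10 lay above in all 4 tumours (median 0.65). Pcna, the sliding clamp, read 12527, 16943, 14909.8 and 14908 in the tumours and 8297 in normal cerebellum (0.83 ± 0.22, adjusted p = 0.148). Among the loader genes, Rfc4 read 1009, 1342, 1573 and 1735 in tumours, against 607 in cerebellum (1.15 ± 0.32, adjusted p = 0.182). Rfc5 read 1119, 1619, 1558 and 1404 in tumours, against 662 in cerebellum (1.06 ± 0.28, adjusted p = 0.155). For both the lowest tumour, medulloblastoma 1, was more than 1.5-fold above the cerebellum. Rfc3 differed by 0.65 ± 0.27 and Rfc1, the large subunit, by 0.41 ± 0.25. Rfc2 stood apart, with 2635, 2453, 1422 and 1852 in tumours, against 1938 in cerebellum (0.07 ± 0.35). At this brightest probe set its ken tumours lay above the cerebellum and its hmk tumours below. The dimmer probe sets of Rfc2 did not divide the tumours by prefix in this way. At -0.19, the tumours read 206, 268, 214 and 300, against 282 in cerebellum, with medulloblastoma 4 alone above. At -0.11, they read 544, 246, 195 and 190, against 292 in cerebellum, with medulloblastoma 1 alone above.

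Rpa1, the large subunit of the protein that coats single-stranded DNA, had the smallest spread among the tumours of all members (SD 0.06). It read 5194, 5347, 4959 and 4894 in the tumours and 3214 in normal cerebellum (0.66 ± 0.20, adjusted p = 0.204). Its partner gene Rpa2 differed by 0.65 ± 0.32. Lig1, the ligase that joins the fragments of the lagging strand, read 1861, 2535, 2056 and 2053 in tumours, against 1257 in cerebellum (0.73 ± 0.25, adjusted p = 0.249).

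Fen1, the flap nuclease that trims those fragments, gave 2 answers. Its brightest probe set, ending in x_at, read 1163, 2789, 1814 and 2531 in the tumours and 1854 in normal cerebellum (0.08 ± 0.44), with 2 tumours above. The other read 849, 1315, 1206 and 1536 in tumours, against 546 in cerebellum (1.09), with all 4 above. The probe sets of Fen1 thus disagree on whether the tumours and the cerebellum overlap.

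Of the 5 nucleotide supply genes 2 lay above the cerebellum in all 4 tumours at their brightest probe sets (median 0.38). Rrm1, the large subunit of ribonucleotide reductase, read 2826, 3896, 3210.1 and 2687 in the tumours and 2399 in normal cerebellum (0.38 ± 0.26). A second probe set of Rrm1, nearly as bright, read 1831, 3715, 4225 and 2799 in tumours, against 1659 in cerebellum (0.84), also with all 4 above. Rrm2, the small subunit whose level follows S phase, read 3706, 5415, 7071 and 6902 in tumours, against 4935 in cerebellum (0.18 ± 0.35). Medulloblastoma 1 lay below the cerebellum at all 3 probe sets of Rrm2, and the other 3 tumours above. The dimmer ones differed by 0.34 and 0.50. Tk1, the salvage kinase for thymidine, read 1358, 1679, 1359.8 and 1675 in tumours, against 1088 in cerebellum (0.46 ± 0.25).

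Dut, which removes dUTP and so keeps uracil out of DNA, read 1360.3, 2632, 3081 and 3178 in tumours, against 1510.2 in cerebellum (0.68 ± 0.44), with only medulloblastoma 1 below. Its second bright probe set read 456, 406, 731 and 286 in tumours, against 247 in cerebellum (0.78), with all 4 above and medulloblastoma 1 not the lowest. Tyms, thymidylate synthase, was the dimmest member, at 108, 252, 196 and 117 in the tumours and 259 in normal cerebellum (-0.60 ± 0.54, adjusted p = 0.619). A second probe set of like brightness read 119, 203, 269 and 140.3 in tumours, against 168 in cerebellum (0.05), so the direction of Tyms depends on the probe set.

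The E2F factor genes themselves were unequal. E2f1, an activator, read 1393, 2194, 2214 and 2353 in the tumours and 1229 in normal cerebellum (0.69 ± 0.32, adjusted p = 0.358). Its second bright probe set read 521, 904, 844 and 954 in tumours, against 645 in cerebellum (0.27), with medulloblastoma 1 below. E2f2, another activator, read 293, 458, 450.1 and 658 in tumours, against 463 in cerebellum (-0.05 ± 0.42), with medulloblastoma 4 alone above. Its second probe set read 204, 325, 341 and 279 in tumours, against 306 in cerebellum (-0.10). There medulloblastomas 2 and 3 lay above and medulloblastoma 4 below. E2f8, an atypical family member that represses such genes, read 580.2, 1138, 987 and 1083 in tumours, against 631 in cerebellum (0.52 ± 0.38), with medulloblastoma 1 alone below. Chaf1b, a subunit of the complex that deposits histones behind the fork, read 763, 1034, 794 and 1226 in tumours, against 575 in cerebellum (0.67 ± 0.33), while its dim second probe set gave -0.40.

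**Figure D3:**
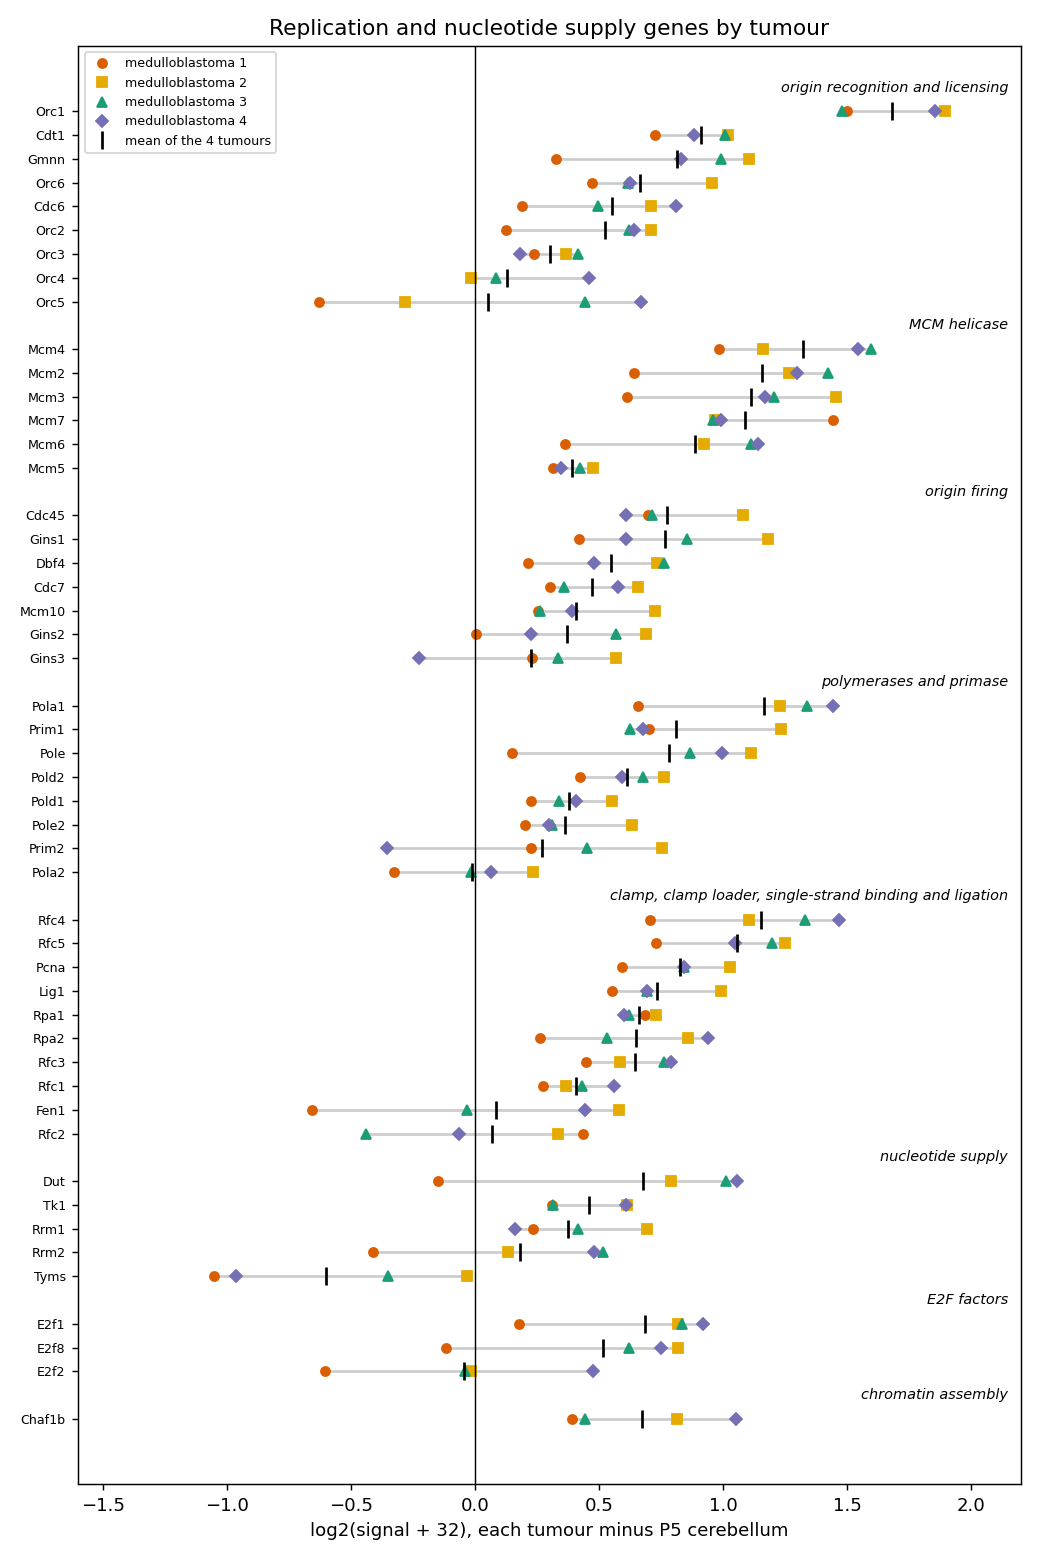
Log2 difference of each tumour from the P5 cerebellum for the 49 members by role, with 1 symbol per tumour and a bar at the mean of the 4. Symbols lie right of 0 in all 4 tumours for 37 genes, and medulloblastoma 1 is the leftmost symbol for 38.

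Across the members, 96 of the 110 probe sets had a mean signal of at least 100. Of these, 86 were higher in the tumours on average and 65 lay above the cerebellum in all 4. Of 34 members with several such probe sets, 27 had all of them on 1 side and 7 did not: Chaf1b, Mcm10, Mcm2, Orc3, Pola2, Rfc2 and Tyms. The gap between probe sets of 1 gene exceeded 1 on the log2 scale in 6 members: Orc1, Mcm2, Mcm10, Chaf1b, Mcm3 and Fen1. The widest, 1.40, was that of Orc1.

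**Figure D4:**
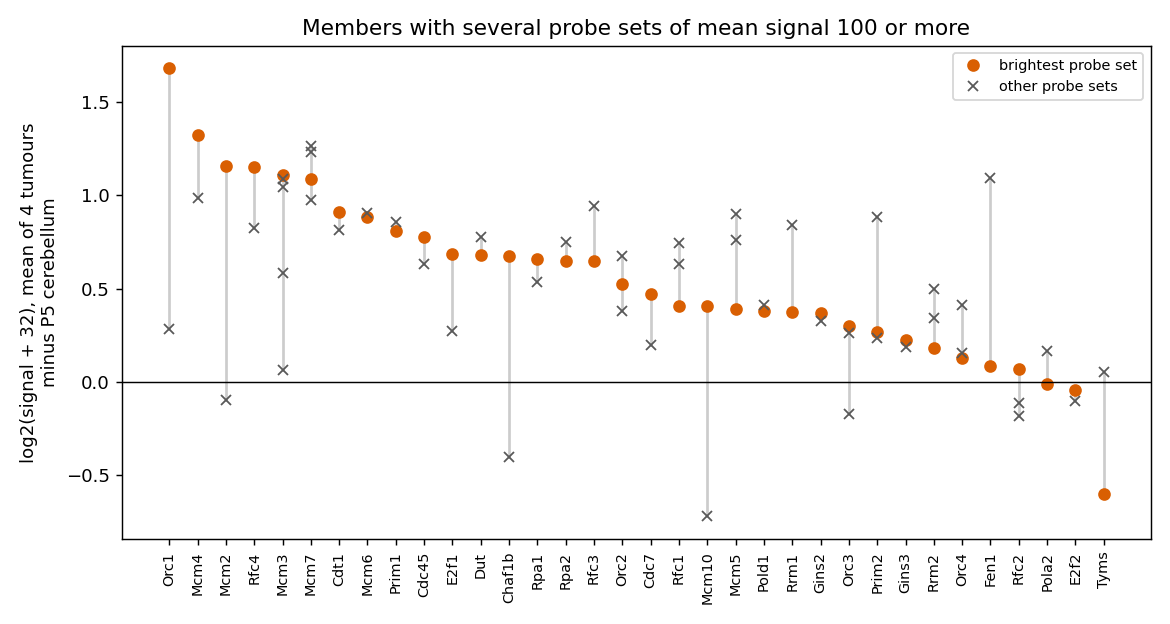
Log2 difference between the mean of the 4 tumours and the P5 cerebellum for each probe set with a mean signal of at least 100, for the 34 members with several, with the brightest probe set as a dot and the others as crosses. The gap is widest for Orc1 (1.68 and 0.28) and Fen1 is the reverse case, its dimmer probe set giving 1.09 and its brightest 0.08.

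The tumours were not equal in these genes. The median difference of the members from the cerebellum was 0.30 in medulloblastoma 1, 0.76 in medulloblastoma 2, 0.62 in medulloblastoma 3 and 0.63 in medulloblastoma 4. Medulloblastoma 1 was the lowest of the 4 tumours in 38 of 49 members (77.6%, background 32.8%), and medulloblastoma 2 the highest in 29 (59.2%, background 20.6%). In medulloblastoma 1 the medians were negative for nucleotide supply (-0.15) and E2F factors (-0.12), against 0.42 to 0.82 in the other 3 tumours, while that of the helicase was 0.63. The nucleotide supply value is that of Dut at its brightest probe set, and the E2F value that of E2f8, so each rests on 1 probe set, and at the second probe set of Dut medulloblastoma 1 lay above the cerebellum. On the same array all 10 markers of differentiated granule neurons were at their highest among the tumours. Their summed signal was 69318 there, 28583 to 40182 in the other 3 and 38466 in the cerebellum. Of 7 Purkinje cell markers 6 were also highest there among the tumours (sum 34719, against 8057 to 18975 in the others). The sum of 8 oligodendrocyte markers was highest there too (38314, against 18749 to 22689), with 3 of the 8 at their highest. Over all 14109 genes tested medulloblastoma 1 was the highest tumour in 4357. The control probe sets gave this array the highest 3'/5' signal ratios, which rise as RNA degrades: 1.45 for actin, where the other 4 arrays had 1.21 to 1.35, and 0.946 for Gapdh, where they had 0.731 to 0.824. Their part in the lower values of medulloblastoma 1 was not tested.

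By title prefix, both hmk tumours lay above both ken tumours in 12 members (24.5%, background 21.5%) and below both in 3 (6.12%, background 23.3%). With the hmk arrays alone the median difference of the members was 0.64 and limma called 16 higher and 0 lower (background 5.93% and 5.96%). With the ken tumours against the hmk cerebellum the median was 0.49 and 0 were called. Each of these fits takes its spread from 1 pair of tumours.

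**Figure D5:**
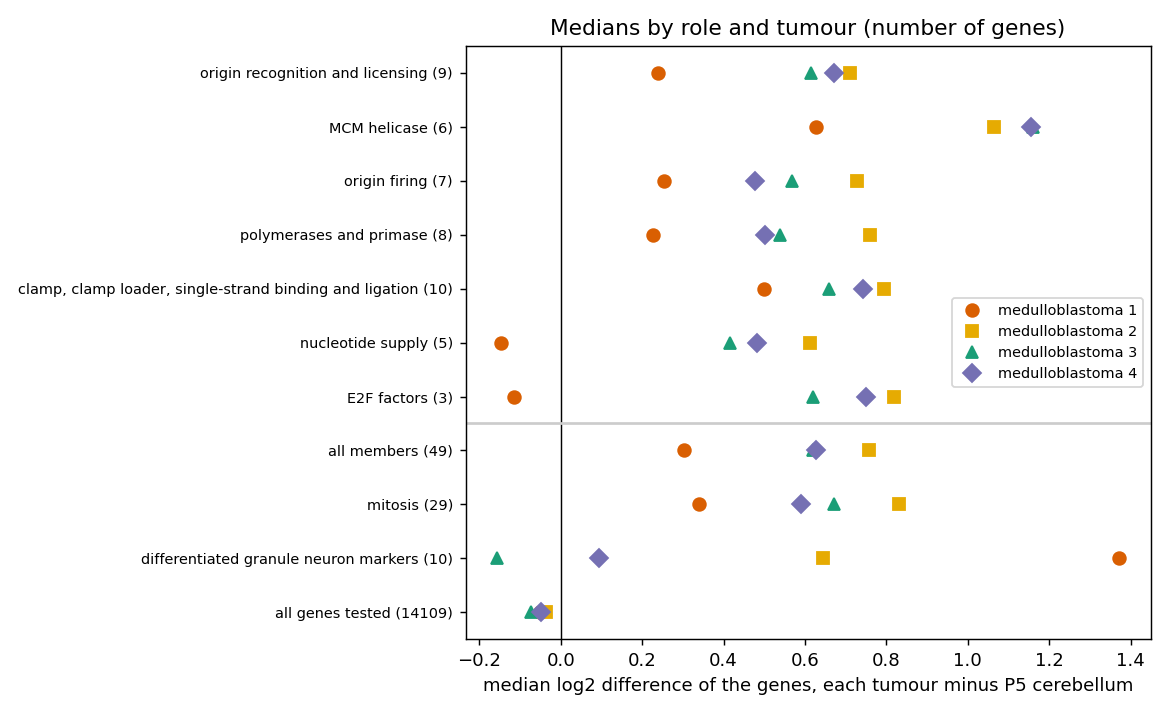
Median log2 difference of each tumour from the P5 cerebellum by role group, with the number of genes in brackets, and below the line the same for all members, mitosis genes, differentiated granule neuron markers and all genes tested. Medulloblastoma 1 has the lowest median in every role group drawn and the highest for the differentiated granule neuron markers (1.37).

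Other genes of the pathway, from a list without the members, had a smaller median. Of 58 further replication and nucleotide genes 54 were tested, with a median of 0.35. Above the cerebellum in all 4 tumours lay 26 of the 54 (background 25.1%), and 3 lay below (background 30.8%). At the limma threshold 2 rose (background 0.312%) and 0 fell (background 0.177%). Shmt1, a folate enzyme that feeds thymidylate synthesis, read 805, 1096, 1092 and 1565 in the tumours and 182 in normal cerebellum (2.42 ± 0.36, adjusted p = 0.0424), and its other 3 probe sets differed by 0.83 to 2.86. Rif1, which times origin firing, read 2025, 2029, 2009 and 2047 in tumours, against 746 in cerebellum (1.40 ± 0.22, adjusted p = 0.0468). Its other probe sets differed by -0.06 to 0.81. Without medulloblastoma 2, 3 or 4 neither was called, with adjusted p between 0.0931 and 0.179. Tipin and Timeless, partners that protect the fork, were next by t, at 0.96 ± 0.27 and 0.81 ± 0.24 (adjusted p = 0.186 and 0.203). A second probe set of Timeless read 561, 609, 661 and 638 in tumours, against 502 in cerebellum (0.28).

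Mitosis genes were compared with the same cerebellum array, so their values are set beside those of the members without a test. The median over 29 of them was 0.62, with 24 above the cerebellum in all 4 tumours (background 25.1%) and 0 below (background 30.8%). By limma 0 were called (background 0.312% higher and 0.177% lower). Their medians were 0.34, 0.83, 0.67 and 0.59 in medulloblastomas 1 to 4. In 20 of the 29 medulloblastoma 1 was the lowest tumour (background 32.8%). The proliferation marker Mki67 read 7488, 8839.9, 7251 and 8095 in tumours, against 4377 in cerebellum (0.85 ± 0.21, adjusted p = 0.129). Top2a, the topoisomerase of dividing cells, belongs to the list of further replication genes and not to the mitosis genes. It read 5052, 7345, 7221 and 7593 in tumours, against 4068 in cerebellum (0.72 ± 0.27, adjusted p = 0.274).

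Markers of the cell types a piece of cerebellum can hold differed between tumours and cerebellum as well. Atoh1, of granule neuron precursors, was higher by 2.81 ± 0.40 (limma, adjusted p = 0.0336), and the summed signal of 10 precursor markers was 50240 to 55141 in the tumours and 42169 in normal cerebellum, with 6 above and 2 below in all 4 tumours (lowest -1.02). Microglia and macrophage markers summed to 23238 to 29347 in the tumours and 7721 in normal cerebellum, with 11 of 11 above in all 4. Below the cerebellum in all 4 tumours lay the sums of 9 astrocyte markers (24077 to 27219 in tumours, against 68296 in cerebellum), of 8 endothelial and pericyte markers (3236 to 4567 in tumours, against 9515 in cerebellum), of 7 Purkinje cell markers (8057 to 34719 in tumours, against 38860 in cerebellum) and of 7 meningeal markers (5369 to 9750 in tumours, against 12276 in cerebellum). That of 8 oligodendrocyte markers lay above (18749 to 38314 in tumours, against 16861 in cerebellum). Of these 8, 4 lay above in all 4 tumours and 4 were mixed (lowest -0.35). Among the 7 Purkinje cell markers 5 lay below in all 4, 1 above and 1 was mixed (highest 2.38). For all genes tested the shares were 25.1% above and 30.8% below in all 4. Of the defining markers, C1qa of microglia rose by 1.95 ± 0.25 (adjusted p = 0.0262) and Gabra6 of differentiated granule neurons by 3.99 ± 0.63 (adjusted p = 0.0468). Aldh1l1 of astrocytes fell by 2.64 (limma, adjusted p = 0.0197), and Col3a1 of meninges fell by 2.40 (adjusted p = 0.0254). Pecam1 of endothelium differed by -2.18 ± 0.58 without passing the test (adjusted p = 0.158). Each of Atoh1, Gabra6 and Col3a1 is the extreme of a list whose members went both ways. Of the 10 differentiated granule neuron markers 5 lay above and 2 below in all 4 tumours (lowest -1.80), with medians of -0.16 and 0.09 in medulloblastomas 3 and 4. Of the 9 astrocyte markers 6 lay below and 2 above (highest 1.62), and of the 7 meningeal markers 3 lay below, 1 above (1.03) and 3 were mixed. Pecam1 read 58.0, 83.7, 100.4 and 58.5 in tumours, against 447 in cerebellum. Medulloblastomas 1, 2 and 4 thus lay under the minimum mean of 100, and only the cerebellum was far above it. The part of these cell type markers in the differences of the replication genes was not tested.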

How the data were processed

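RNA of 4 mouse medulloblastomas and 1 P5 cerebellum had been hybridised to Affymetrix arrays. The deposited values are intensities on a linear scale, 1 per probe set and array, made with MAS5 per the submitters' processing notes (for medulloblastoma 3 no tool is given in the sources used here). The 2% trimmed mean was 500.002 on each array, so no further scaling was applied. The number of arrays limits the precision. The labels do not say that samples came from separate animals, so p-values measure only the spread between these samples.

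Of 45101 probe sets, 34945 carried 1 gene symbol in the platform annotation. The brightest probe set stood for each gene. A mean signal of 100 or more was required for testing. Tumours and cerebellum were compared on log2(signal + 32), which understates changes of dim genes, with limma 3.58.1 in R 4.3.3 (trended eBayes, 3 residual and 5.02 prior degrees of freedom, two-sided, Benjamini-Hochberg over 14109 genes, threshold 0.05). The value after ± is the standard error. Above or below counts need no spread. The fit was tested on simulated data. There each gene had the same spread on all 5 arrays, so that run cannot show how much cerebellum samples vary.

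Members and lists were chosen with earlier results of these data known. By the naming rule, arrays are given in full for the 12 members with the smallest p, those with a negative difference or probe sets of differing sign and the 5 with the largest spread. Others named are the 4 further genes with the largest t, Mki67, Top2a and 6 defining markers. Members whose roles needed them were also given per array, chosen after their values were seen. Erythroid markers (3 of 5 named, 1 tested, median -0.34) were not used. Alternatives were other scalings, constants, filters, probe set choices, variance models, thresholds, title prefixes and each tumour left out. Promoters are RefSeq's.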

Additional observations from a re-analysis of the deposited data

Results flagged for a closer look

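In 4 of the 49 members 1 tumour lay far from the other 3, by the gap to its neighbour as a share of the range of log2 signals (above Dixon's 95% critical value). Chance alone flags about 1 in 20 groups, or 2.45 of 49. For Mcm7 medulloblastoma 1 was highest (ratio 0.934), at 21984 against 15682 to 16037 in the other tumours. At the next brightest probe set of Mcm7 the tumours read 7997, 7761, 7483 and 6492, with no such gap. Medulloblastoma 1 was lowest for E2f1 (ratio 0.866) and Orc2 (ratio 0.846). For Prim1 medulloblastoma 2 was highest (ratio 0.875), at 3753 against 2450.3 to 2585.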

How the results depend on the processing

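No paired analysis was possible because there is 1 cerebellum array. Of 783 values of single members under the alternatives, 730 kept their direction and side of the threshold, 31 kept their direction and passed it, and 22, in 8 members, changed sign. The cause was not tested. Sign changes were E2f2 0.054 under quantile normalization, Pola2 0.18 and E2f2 0.14 with equal medians, and Orc4 -0.0029, Pola2 0.013, Rfc2 -0.077 and E2f8 -0.48 with all probe sets averaged. With the hmk arrays alone they were Pola2 0.026, Rfc2 -0.25 and E2f2 0.22, and with the ken tumours Orc4 -0.016, Orc5 -0.45, Fen1 -0.039 and Rrm2 -0.14. With 1 tumour left out in turn, Orc5 ranged between -0.16 (without medulloblastoma 4; -0.079 without medulloblastoma 3) and 0.28, Pola2 between -0.091 and 0.095 (positive without medulloblastoma 1), Rfc2 between -0.056 and 0.24 (negative without medulloblastoma 1 or 2), Fen1 between -0.083 and 0.33 (negative without medulloblastoma 2 or 4) and E2f2 between -0.22 and 0.14 (positive without medulloblastoma 1).

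Over all genes the calls were 44 higher and 25 lower. They were 78 higher with equal medians (which moves the median of all genes to 0.12), 45 lower with the larger constant before log2, 14 and 12 with no filter, 19 and 9 with probe sets averaged, 0 and 0 in limma without a variance trend (908 and 1099 at an unadjusted p under 0.05), 98 and 65 at a threshold of 0.1, 837 and 841 in the hmk arrays, 21 and 16 with the ken tumours, and 0 to 448 and 0 to 383 with 1 tumour left out. Members called higher numbered 0, but 1 without probe sets ending in x_at or s_at, 16 in the hmk arrays, and 0 to 14 with 1 tumour left out, 14 of them without medulloblastoma 1. Members called lower numbered 0 under each alternative. Members below the cerebellum in all tumours numbered 1, but 0 under quantile normalization, equal medians or a minimum of 200 (which leaves out Tyms), 2 in the hmk arrays, 4 with the ken tumours and 1 to 2 with 1 tumour left out. Members above in all tumours numbered 31 to 42, and the median of the members lay between 0.49 and 0.81. The calls of Shmt1 and Rif1 were lost without the filter, without the variance trend and with the ken tumours, and that of Rif1 also with probe sets averaged (0.71, limma adjusted p = 0.283) or without those ending in x_at or s_at (0.67, adjusted p = 0.340).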
